A study of Mus musculus with 30 samples.

Results

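The core pluripotency factors followed here are 10 genes, Pou5f1, Nanog, Sox2, Esrrb, Utf1, Zfp42, Klf2, Sall4, Tfcp2l1 and Lin28a. They were taken by gene symbol from the annotation of the array, out of 19937 genes with a probe set of a single symbol. All 10 were measured by 1 probe set each, lay above the 40th percentile of the array on all 30 arrays and were among the 15180 genes tested. In the early embryo and in embryonic stem cells these factors hold cells in an undifferentiated state, and POU5F1 (also called OCT4), SOX2 and NANOG bind many enhancers together. Primordial germ cells, from which eggs and sperm later form, carry much of the same network after they reach the gonad. It is shut down as female germ cells enter meiosis and as male germ cells arrest in the cell cycle.

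Affymetrix arrays measured RNA of 500 sorted germ cells per sample, amplified as a whole transcriptome. Control germ cells had the genotype Ring1+;Rnf2+ and the deleted ones Ring1+;Rnf2delta, from here on Rnf2delta. The proteins RNF2 and RING1 are paralogous ubiquitin ligases of Polycomb repressive complex 1, a repressor of developmental genes. The series asked how this complex sets the time at which female germ cells differentiate. Both genotypes were sampled at E11.5 and E12.5 and controls alone at E13.5, in females and males, which gives 10 groups of 3 arrays. Every embryo carried Ring1+, the Oct4(deltaPE)-GFP transgene and a mixed background of 129/Sv and C57BL6J. Which promoter or cell type drove the deletion of Rnf2 is not given in the sources used here. The transgene is an OCT4 reporter, so only cells that still drove regulatory sequence of Pou5f1 were measured, and Pou5f1 is not independent of the sort. No label ties the arrays of a group to different embryos or litters, and the p-values therefore reflect only the scatter among these arrays, part of which may be technical. In bulk samples such as these, fewer cells of a type and less RNA per cell cannot be told apart.

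Promoter sequence is shown for the members that carry an octamer, the site that POU5F1 reads. RefSeq promoters of build GRCm38.p6, which reach from 250 bases before to 50 bases after a transcript's start, matched 9 of the 10 members. The octamer was searched as ATGCAAA or, on the other strand, TTTGCAT. It stands in capitals in the windows of Sox2 (chr3:34649872-34649926, plus strand), Nanog (chr6:122707390-122707444, plus strand) and Zfp42 (chr8:43307164-43307218, minus strand), each read 5′ to 3′ on the strand of its gene.
Sox2: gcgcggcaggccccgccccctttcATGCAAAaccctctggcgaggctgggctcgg
Nanog: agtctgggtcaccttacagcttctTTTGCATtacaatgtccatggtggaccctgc
Zfp42: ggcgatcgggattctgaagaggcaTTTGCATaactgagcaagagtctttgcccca
All 3 windows lie upstream of the gene. Of 32851 promoters of 300 bases, 4.63% held the octamer. A SOX motif, ACAATG or CATTGT, was found in promoters of Esrrb, Lin28a, Nanog and Pou5f1 and in 12.6% of all promoters. The matches of Pou5f1 and Lin28a begin at -158 and -96 from the start of a transcript that begins inside the gene. In Nanog the SOX motif begins at position 122707422, next to the octamer, which ends at 122707420. An ESRRB half-site, AAGGTCA or TGACCTT, was found in no promoter of the members and in 4.72% of all. These are matches of letters and no measurement of binding, and whether they bear on any change of RNA was not tested.

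The deposited log2 signals had array medians of 2.52 to 2.66. Germ cell markers, 8 of 8 measured, had a mean log2 level of 6.55 to 7.07 per array, and Dazl and Ddx4 were at least 5.34 on every array. The lowest single value among the 8 was 4.46, for Prdm1. By genotype in E12.5 females 3 of the 8 were lower in Rnf2delta and none higher, where 2.16% of all genes were lower and 7.73% higher. These were Dppa3 (-0.56, limma, adjusted p = 0.014), Prdm1 (-0.50, adjusted p = 0.032) and Dnd1 (-0.69, adjusted p = 0.037). Lists of supporting, mesenchymal, steroidogenic, endothelial and macrophage markers had means of at most 3.03 on any array. Single markers of these lists passed between stages or sexes, and none by genotype. In control females Egfl7 (-0.99), Tek (-0.57) and Cx3cr1 (-1.11) fell and Rspo1 (0.51) rose from E11.5 to E12.5, and Egfl7 rose (0.71) by E13.5. Egfl7 (-0.87) and Esam (-0.45) fell in Rnf2delta females. In control males from E11.5 to E13.5 Egfl7 (-0.77) and Tek (-0.61) fell and Amh (0.96) rose. Between the sexes at E12.5, Egfl7 was lower in females in controls (-0.56) and in Rnf2delta (-0.55), and Col1a1 in Rnf2delta (-0.43). At E13.5 Amh was lower in control females than in males (-0.82). Of the erythroid list 4 of 6 genes were measured. Its mean was 4.5 on Rnf2delta E12.5 male replicate 3, where the embryonic globin Hbb-y reached 9.71, and at most 2.5 on the other arrays. The E12.5 female arrays were the most scattered, with a median within-group standard deviation (SD) of 0.238 in controls and 0.207 in Rnf2delta, against 0.14 to 0.175 elsewhere. A standard error (SE) shared by all groups understates the error of comparisons that use them and can overstate it for comparisons without them. Rnf2 itself was lower in Rnf2delta than in control at E12.5, in males (-1.03 ± 0.19 on the log2 scale, SE, adjusted p = 0.0022) and in females (-0.63 ± 0.19, adjusted p = 0.029). The female call was lost with array weights, with only the compared groups and without control replicate 1 or Rnf2delta replicate 1 or 3 (adjusted p up to 0.36). At E11.5 Rnf2 did not pass in females (-0.61, adjusted p = 0.2) or males (-0.31, adjusted p = 0.8). If its probe set lies beyond the deleted sequence, these levels do not check the genotype.

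**Figure D1:**
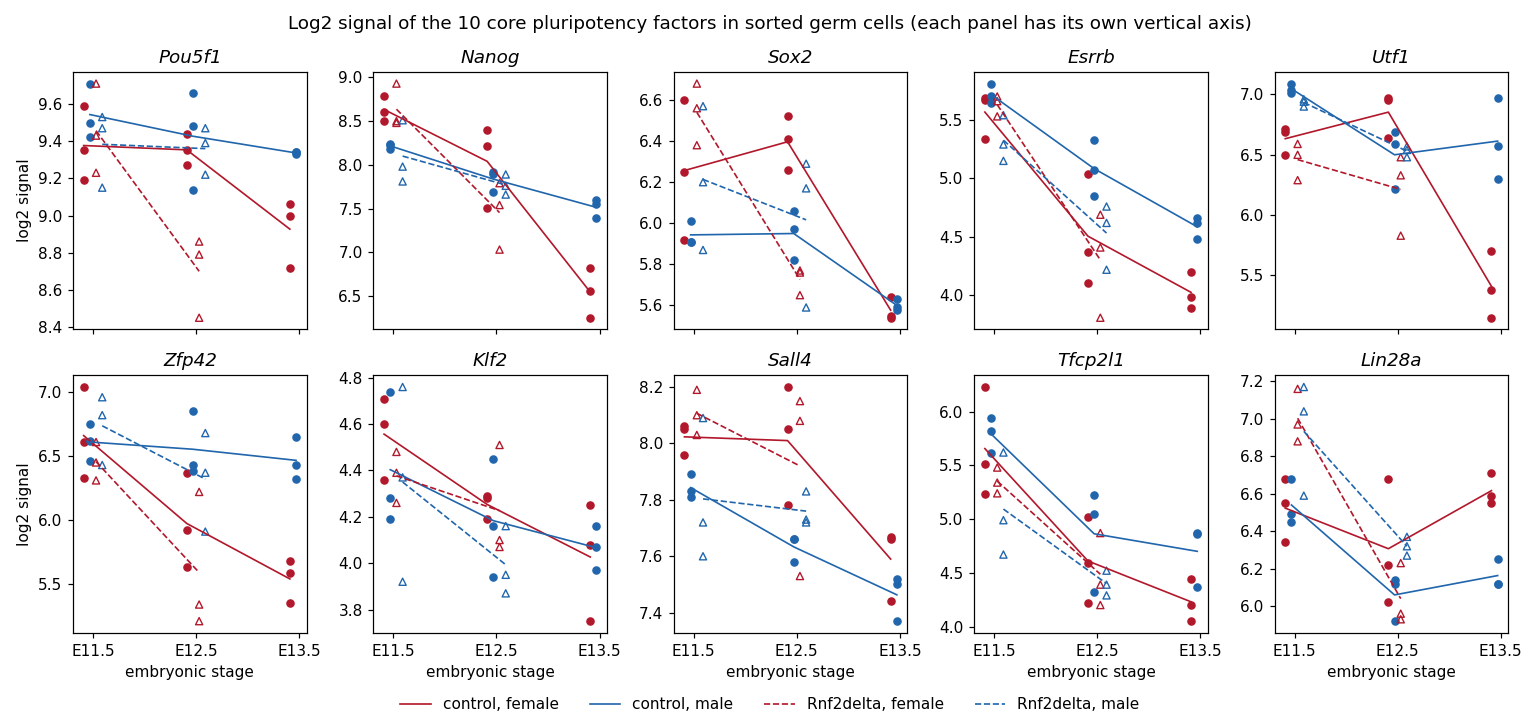
Log2 signal (vertical axis, one scale per panel) of the 10 factors against embryonic stage (horizontal axis), with 1 point per array and lines through group means. Filled circles are control and open triangles Rnf2delta arrays, red is female and blue male. The means of 6 factors were lowest in control females at E13.5, and Pou5f1 and Lin28a were lowest in Rnf2delta females at E12.5.

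Pou5f1, the POU factor at the head of the network, was highest in E11.5 control males, with log2 levels of 9.71, 9.42 and 9.5. Its group means spanned 8.7 to 9.54. The lowest groups were Rnf2delta females at E12.5 (8.45, 8.79 and 8.86) and control females at E13.5 (9, 8.72 and 9.06), which overlapped each other. In the order of the 10 group means, control E13.5 males (9.33 to 9.34) and control E13.5 females were the only neighbours whose arrays did not overlap.

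Nanog, the homeodomain factor that guards the undifferentiated state, moved over the widest range of group means among the 10 genes, 2.09 on the log2 scale. Its arrays read 8.61, 8.79 and 8.5 in control females at E11.5, then 7.51, 8.21 and 8.4 at E12.5 and 6.56, 6.25 and 6.82 at E13.5. Control males read 8.23, 8.18 and 8.24, then 7.92, 7.9 and 7.69, then 7.6, 7.55 and 7.39. Female arrays thus started above the male ones and ended below them, with no overlap at either end, which was not counted over all genes. The difference passed at E13.5 (limma, adjusted p = 0.0011) and did not at E11.5 (adjusted p = 0.59). Rnf2delta females read 8.48, 8.5 and 8.93 at E11.5 and 7.03, 7.79 and 7.54 at E12.5, which set the E12.5 mean (7.46) between those of the E12.5 (8.04) and E13.5 (6.54) controls.

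Sox2, the partner of POU5F1 on composite sites, read 6.25, 6.6 and 5.92 in control females at E11.5. It was 6.52, 6.26 and 6.41 at E12.5 and 5.55, 5.64 and 5.54 at E13.5. The E13.5 females sat at the same level as E13.5 males (5.59, 5.63 and 5.58). Rnf2delta females read 6.56, 6.38 and 6.68 at E11.5 and 5.77, 5.65 and 5.76 at E12.5, the second set below every control array of E12.5 of either sex. Sall4 is a zinc finger factor that keeps Pou5f1 active. Its group means lay between 7.92 and 8.1 in the 4 female groups of E11.5 and E12.5 and at 7.59 in E13.5 control females (7.67, 7.44 and 7.66).

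Esrrb and Tfcp2l1, transcription factors of the naive state of stem cells, followed each other most closely of all pairs of members, with a Pearson r of 0.96 over the 10 group means. Esrrb read 5.69, 5.67 and 5.34 in control females at E11.5, then 4.11, 4.37 and 5.04, then 3.99, 3.89 and 4.2. In control males it read 5.64, 5.81 and 5.7, then 5.33, 5.07 and 4.85, then 4.48, 4.66 and 4.62. Its group mean was lower at each later stage in both sexes, and the E11.5 control arrays lay above all later control arrays of their sex. Tfcp2l1 read 5.23, 6.23 and 5.51 in control females at E11.5, 4.22, 4.59 and 5.02 at E12.5 and 4.05, 4.44 and 4.2 at E13.5. Klf2, a Krüppel-like factor of the same network, had the narrowest range of group means, 0.56. Its arrays lay between 3.75 and 4.76, and every group overlapped its neighbours in the order of means.

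Utf1, a chromatin-bound factor of undifferentiated cells, and Zfp42, the zinc finger protein REX1 used as a stem cell marker, had the largest differences between the control sexes at E13.5 together with Nanog. Utf1 read 6.69, 6.71 and 6.5 in control females at E11.5, 6.64, 6.95 and 6.97 at E12.5 and 5.38, 5.15 and 5.7 at E13.5, while control males of E13.5 read 6.3, 6.57 and 6.97. Zfp42 read 6.33, 6.61 and 7.04 in control females at E11.5, 5.63, 5.92 and 6.37 at E12.5 and 5.59, 5.35 and 5.68 at E13.5. Male control arrays of Zfp42 lay between 6.32 and 6.85 at all 3 stages, and the sexes did not overlap at E12.5 or at E13.5. Lin28a, an RNA-binding protein that blocks maturation of let-7 microRNAs, was highest in Rnf2delta females at E11.5 (7.16, 6.97 and 6.88) and lowest in the same genotype and sex at E12.5 (5.96, 6.23 and 5.93). Its control female arrays read 6.34 to 6.68 at E11.5, 6.02 to 6.68 at E12.5 and 6.55 to 6.71 at E13.5.

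Control females from E11.5 to E13.5 gave the broadest fall. Of the 10 factors 9 fell and none rose, where 12% of all genes tested fell and 14.2% rose. The arrays of the 2 stages did not overlap for those 9, and overlap was not counted over all genes. Nanog fell 4.25-fold (-2.09 ± 0.20 on the log2 scale, SE, n = 3 per group, adjusted p = 1.6e-08). Falls followed of Esrrb (-1.54 ± 0.20, adjusted p = 1.5e-06), Tfcp2l1 (-1.43 ± 0.25, adjusted p = 8e-05) and Utf1 (-1.22 ± 0.17, adjusted p = 3.5e-06). Zfp42 (-1.12 ± 0.23, adjusted p = 0.0005) and Sox2 (-0.68 ± 0.17, adjusted p = 0.0031) fell less. The smallest changes past the threshold were those of Klf2 (-0.53, adjusted p = 0.03), Pou5f1 (-0.45, adjusted p = 0.03) and Sall4 (-0.43, adjusted p = 0.024). Lin28a did not pass (0.09 ± 0.15, adjusted p = 0.72). The median change of the 10 was -0.90, against -0.00 over all genes.

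The 6 larger of these falls passed in each of 15 alternatives, single arrays left out included. Pou5f1, Klf2 and Sall4 lost the call without E11.5 replicate 1, E11.5 replicate 2 or E13.5 replicate 2 (adjusted p up to 0.18 over the alternatives), and Klf2 also without E13.5 replicate 3.

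**Figure D2:**
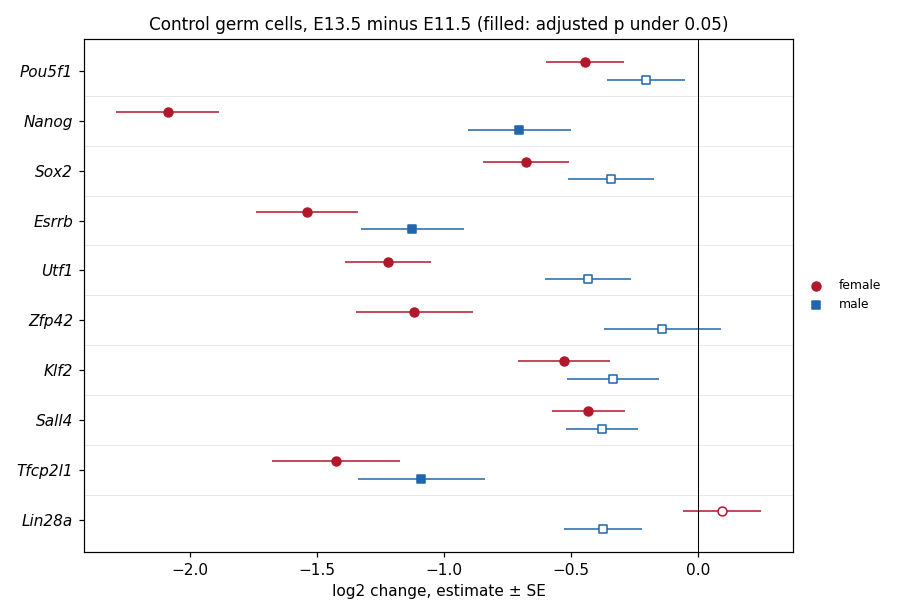
Change from E11.5 to E13.5 in control germ cells (horizontal axis, log2 estimate ± SE) for each factor (vertical axis), female as red circles and male as blue squares. Filled symbols had an adjusted p under 0.05, which holds for 9 female and 3 male changes, and the female and male estimates of Nanog are furthest apart.

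Different factors passed the threshold on the first and on the second day in control females, and whether the steps of a gene differ was not tested. From E11.5 to E12.5, 4 of the 10 fell and none rose, where 14.2% of all genes fell and 4.56% rose (9.76% and 8.56% with quantile normalization of the arrays). These were Esrrb (-1.06 ± 0.20, adjusted p = 0.00041), Tfcp2l1 (-1.05 ± 0.25, adjusted p = 0.0035), Zfp42 (-0.69 ± 0.23, adjusted p = 0.036) and Nanog (-0.59 ± 0.20, adjusted p = 0.04). The Zfp42 arrays of the stages overlapped. Pou5f1 (-0.02), Sall4 (-0.01), Sox2 (0.14), Utf1 (0.22), Lin28a (-0.21) and Klf2 (-0.30) did not pass.

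From E12.5 to E13.5, 5 of the 10 fell and none rose, where 4.81% of all genes fell and 17.0% rose (8.92% and 11% with quantile normalization). Nanog (-1.50 ± 0.20, adjusted p = 5.6e-06) and Utf1 (-1.44 ± 0.17, adjusted p = 7.3e-07) fell most, 2.82-fold and 2.72-fold. Sox2 (-0.82 ± 0.17, adjusted p = 0.00076), Pou5f1 (-0.42 ± 0.15, adjusted p = 0.046) and Sall4 (-0.42 ± 0.14, adjusted p = 0.034) fell with them. Esrrb (-0.48, adjusted p = 0.093), Zfp42 (-0.43) and Tfcp2l1 (-0.38), which had fallen a day before, did not pass. Nanog alone passed at both steps, and the steps share the E12.5 arrays.

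Several calls of single days changed with the weighting or with the arrays used. At the first step Nanog and Zfp42 did not pass with array weights, with quantile normalization or with the fit held to the compared groups, nor without E11.5 replicate 2 or E12.5 replicate 1 (adjusted p up to 0.3 and 0.19). Nanog was also lost without E11.5 replicate 1 and Zfp42 without E11.5 replicate 3 or E12.5 replicate 2. At the second step Pou5f1 and Sall4 were lost with array weights, with only the compared groups and without E12.5 replicate 2, E12.5 replicate 3 or E13.5 replicate 2 (adjusted p up to 0.21 and 0.15), Pou5f1 also without E12.5 replicate 1 or E13.5 replicate 1. Tfcp2l1 had an adjusted p of 0.051 at the first step with only the compared groups.

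In control males fewer factors passed. From E11.5 to E13.5 all 10 changes lay below 0, from -0.14 to -1.12, and 3 of the 10 passed, where 5.64% of all genes fell and 5.32% rose. These were Esrrb (-1.12 ± 0.20, adjusted p = 0.00034), Tfcp2l1 (-1.09 ± 0.25, adjusted p = 0.0042) and Nanog (-0.70 ± 0.20, adjusted p = 0.023). Nanog lost the call without E11.5 replicate 1, 2 or 3 or E13.5 replicate 2 or 3 (adjusted p up to 0.093). With array weights Utf1, Sall4 and Lin28a passed too. The stages did not overlap for 9 of the 10, Zfp42 being the exception (-0.14 ± 0.23, adjusted p = 0.78). Overlap was not counted over all genes, and the 9 include changes far from the threshold, such as Pou5f1 (-0.21, adjusted p = 0.46).

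By single days few male changes passed. From E11.5 to E12.5 only Tfcp2l1 passed (-0.93 ± 0.25, adjusted p = 0.04), where 1.65% of all genes fell and 0.962% rose (1.42% and 1.49% with quantile normalization). It was lost with no filter on low values (0 of 10 then passed) and without E11.5 replicate 1, 2 or 3 or E12.5 replicate 2 or 3 (adjusted p up to 0.27). Esrrb, Utf1 and Lin28a passed too with array weights, without the E12.5 female arrays or with only the compared groups (adjusted p down to 0.011, 0.024 and 0.022). From E12.5 to E13.5 none of the 10 passed in limma, against 0.758% of genes higher and 0.343% lower by adjusted p (0.573% and 0.402% with quantile normalization). None passed in any alternative, and 2 had an unadjusted p under 0.05, which was not counted over all genes.

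The change from E11.5 to E13.5 was set against itself between the sexes in an interaction contrast, which called 5.28% of all genes in either direction and 1 of the 10 factors. The fall of Nanog was larger in females (-1.39 ± 0.29, adjusted p = 0.004, and 0.00027 to 0.019 over 21 alternatives). Zfp42 (-0.98 ± 0.33, adjusted p = 0.077) and Utf1 (-0.79 ± 0.24, adjusted p = 0.051) did not pass. Utf1 passed in 9 of 21 alternatives, among them array weights and quantile normalization, and Zfp42 in 4. For Esrrb (-0.41 ± 0.28, 95% confidence interval -0.997 to 0.17) and Tfcp2l1 (-0.34 ± 0.36, interval -1.06 to 0.39) no difference between the sexes was detected.

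Direct comparison of the sexes in controls began with no call. At E11.5 none of the 10 factors passed in limma, against 0.112% of genes higher in females and 0.138% lower by adjusted p (0.191% and 0.0856% with quantile normalization). An unadjusted p under 0.05 was found for 2 factors and was not counted over all genes. Nanog was 0.42 ± 0.20 higher in females than in males (adjusted p = 0.59), and the Utf1 difference was -0.41 ± 0.17 (adjusted p = 0.47). At E12.5 only Esrrb passed, lower in females with overlapping arrays (-0.58 ± 0.20, adjusted p = 0.042, and 0.0029 to 0.26 over the alternatives), where 14.7% of all genes were lower and 4.31% higher (8.65% and 7.42% with quantile normalization). The Zfp42 difference (-0.58 ± 0.23, adjusted p = 0.078) did not pass. Sox2 (0.45 ± 0.17, adjusted p = 0.062) and Sall4 (0.38 ± 0.14, adjusted p = 0.064), both higher in females without overlap, did not pass either. Of the 10 differences 6 were above 0. With quantile normalization Sox2, Utf1, Sall4 and Lin28a passed, higher in females. For Esrrb, array weights, quantile normalization and 5 other alternatives ended the call, among them the fits without female replicate 1 or 2 or male replicate 1 or 2.

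At E13.5, 3 factors were lower in females and 1 was higher, where 8.37% of all genes were lower and 7.91% higher. Utf1 (-1.20 ± 0.17, adjusted p = 8.8e-06), Nanog (-0.97 ± 0.20, adjusted p = 0.0011) and Zfp42 (-0.93 ± 0.23, adjusted p = 0.0051) were the lower ones, and each passed in all 15 alternatives. Lin28a was higher by 0.45 ± 0.15 (adjusted p = 0.042), a call lost when any 1 of the 6 arrays was left out (adjusted p up to 0.14). Esrrb (-0.56 ± 0.20, adjusted p = 0.056) and Pou5f1 (-0.41 ± 0.15, adjusted p = 0.07) did not pass, although the sexes did not overlap, and they passed in 4 and 3 of the 15 alternatives. Tfcp2l1 (-0.47, adjusted p = 0.23) did not pass either. Sox2 (-0.02 ± 0.17), Klf2 (-0.04 ± 0.18) and Sall4 (0.12 ± 0.14) showed no difference beyond their error at this stage.

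**Figure D3:**
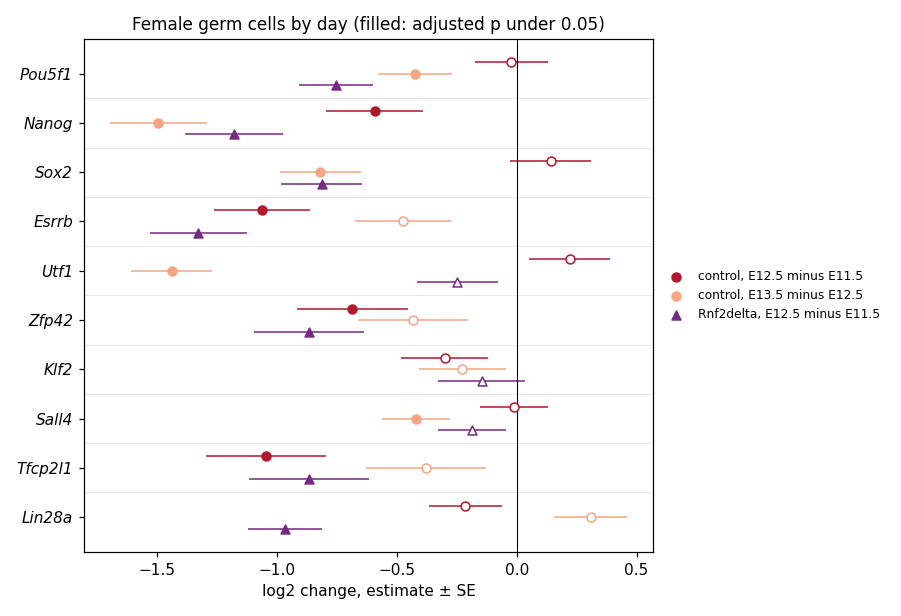
Change of each factor over 1 day in female germ cells (horizontal axis, log2 estimate ± SE), control from E11.5 to E12.5 (dark red circles), control from E12.5 to E13.5 (light circles) and Rnf2delta from E11.5 to E12.5 (purple triangles). Filled symbols had an adjusted p under 0.05. Pou5f1 and Sox2 are filled in the later control step and in Rnf2delta and open near 0 in the earlier control step.

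Loss of Rnf2 was compared with controls at each stage and sex, and E12.5 females were where members passed. There 3 of the 10 factors were lower in Rnf2delta and none was higher, where 2.16% of all genes were lower and 7.73% higher (4.16% and 5.34% with quantile normalization). Pou5f1 read 9.27, 9.44 and 9.35 in controls and 8.45, 8.79 and 8.86 in Rnf2delta, and was 1.57-fold lower in Rnf2delta (-0.65 ± 0.15, adjusted p = 0.0068, and 0.002 to 0.2 over 14 alternatives). Sox2 read 6.52, 6.26 and 6.41 against 5.77, 5.65 and 5.76 and was lower too (-0.67 ± 0.17, adjusted p = 0.011, and 0.0012 to 0.16). Utf1 read 6.64, 6.95 and 6.97 against 5.83, 6.33 and 6.48 (-0.64 ± 0.17, adjusted p = 0.015, and 0.0027 to 0.28). None of these 3 overlapped between the genotypes, and overlap was not counted over all genes.

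All 10 changes in E12.5 females were below 0, with a median of -0.33 against 0.05 over all genes. Nanog (-0.58 ± 0.20, adjusted p = 0.064) overlapped between the genotypes, because control replicate 1 read 7.51 and Rnf2delta replicate 2 read 7.79. It passed without either of these arrays and with quantile normalization. Zfp42 (-0.38), Lin28a (-0.27), Esrrb (-0.20), Tfcp2l1 (-0.12), Sall4 (-0.09) and Klf2 (-0.02) did not pass. Control replicate 1 was the lowest of its group for 8 of the 10 factors and Rnf2delta replicate 1 for 5.

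These genotype calls changed with the weights and the arrays used. With array weights 0 of the 10 factors passed, and 254 genes in all in place of 1502. With the fit held to the compared groups 0 passed as well, and 54 genes in all. Without Rnf2delta replicate 1 Sox2 alone passed, and Utf1 was also lost without control replicate 3.

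In the other genotype comparisons no member passed in limma. The shares of all genes given for them are calls by adjusted p, and unadjusted p was not counted over all genes. At E11.5, 0.54% of all genes were higher and 0.0132% lower in Rnf2delta females, and 1 of the 10 factors had an unadjusted p under 0.05. This was Lin28a (0.48 ± 0.15, adjusted p = 0.23), whose genotypes did not overlap and which passed with array weights (0.048). In E11.5 males 0.679% of genes were higher and 0.0395% lower, and 2 factors had an unadjusted p under 0.05, Tfcp2l1 (-0.70 ± 0.25, adjusted p = 0.31) and Lin28a (0.39 ± 0.15, adjusted p = 0.39). At E12.5 in males 0.843% of genes were higher and 0.119% lower, and 1 factor had an unadjusted p under 0.05, Esrrb (-0.55 ± 0.20, adjusted p = 0.32). No alternative, Rnf2delta E12.5 male replicate 3 left out included, gave a call in males. For Pou5f1 the E12.5 male change was -0.07, with a 95% confidence interval of -0.38 to 0.25, and for Sox2 0.07, interval -0.28 to 0.41.

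Whether the genotype effect at E12.5 differed between the sexes was tested directly. No factor passed, against 0.296% of all genes in either direction by adjusted p (0.217% above and 0.0791% below 0, and 0.165% and 0.152% with quantile normalization). For 4 factors the unadjusted p was under 0.05, which was not counted over all genes. The estimates were -0.74 ± 0.24 for Sox2 (adjusted p = 0.15), -0.68 ± 0.24 for Utf1 (adjusted p = 0.19), -0.58 ± 0.22 for Pou5f1 (adjusted p = 0.21) and -0.54 ± 0.22 for Lin28a (adjusted p = 0.26). Between the stages in females none passed either, against 0.145% of genes by adjusted p (0.0988% above and 0.0461% below 0, and 0.119% and 0.112% with quantile normalization). Here 3 factors had an unadjusted p under 0.05, again not counted over all genes. Sox2 gave -0.95 ± 0.24 (adjusted p = 0.1, and 0.027 with quantile normalization), Lin28a -0.75 ± 0.22 (adjusted p = 0.14) and Pou5f1 -0.73 ± 0.22 (adjusted p = 0.16).

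**Figure D4:**
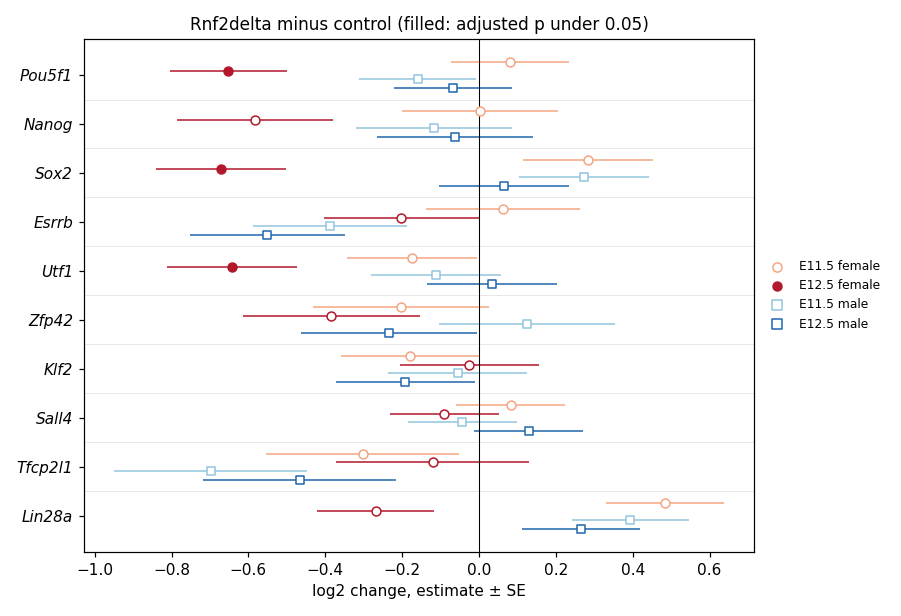
Rnf2delta minus control (horizontal axis, log2 estimate ± SE) for each factor, females as circles and males as squares, E11.5 in light and E12.5 in dark colours. The 3 filled symbols, Pou5f1, Sox2 and Utf1 in E12.5 females, had an adjusted p under 0.05 with equal weights for all arrays.

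Within the Rnf2delta genotype, most of the set fell in female germ cells over 1 day, by at most 2.51-fold. From E11.5 to E12.5, 7 of the 10 factors fell and none rose, where 11.7% of all genes fell and 6.96% rose (9.1% and 9.42% with quantile normalization). The largest falls were those of Esrrb (-1.33 ± 0.20, adjusted p = 3.6e-05), Nanog (-1.18 ± 0.20, adjusted p = 0.00016) and Lin28a (-0.97 ± 0.15, adjusted p = 5.9e-05). Sox2 (-0.81 ± 0.17, adjusted p = 0.0011) and Pou5f1 (-0.76 ± 0.15, adjusted p = 0.00084) came next. All 5 passed in each of 14 alternatives. Zfp42 and Tfcp2l1 fell alike (-0.87 each), with adjusted p of 0.0084 and 0.015.

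Both Zfp42 and Tfcp2l1 were lost without E12.5 replicate 1 or 3, and Tfcp2l1 also without E11.5 replicate 2 (adjusted p up to 0.059 and 0.073). Utf1 (-0.25), Sall4 (-0.19) and Klf2 (-0.15) did not pass. The median change of the 10 was -0.84, against -0.26 in control females over the same day. The difference between those 2 changes, gene by gene, is the stage interaction given above, and no factor passed it. In Rnf2delta males none of the 10 passed in limma, against 0.395% of genes lower and 0.152% higher by adjusted p (0.329% and 0.231% with quantile normalization). An unadjusted p under 0.05, not counted over all genes, was found for 4 factors. All 10 male changes were below 0, and the largest were those of Esrrb (-0.79, adjusted p = 0.068), Tfcp2l1 (-0.70, adjusted p = 0.22) and Lin28a (-0.61, adjusted p = 0.066). Esrrb and Lin28a passed with array weights and without the E12.5 female arrays.

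Between the sexes of the Rnf2delta genotype at E12.5, 2 factors were lower in females, where 9.27% of all genes were lower and 5.9% higher (7.56% and 7.63% with quantile normalization). Pou5f1 read 8.45, 8.79 and 8.86 in females and 9.47, 9.39 and 9.22 in males, a difference of -0.66 ± 0.15 (adjusted p = 0.0034) that passed in all 14 alternatives. Zfp42 was lower with overlapping arrays (-0.73 ± 0.23, adjusted p = 0.03, and 0.0022 to 0.19). It was lost with array weights, with quantile normalization, with only the compared groups and without male replicate 2 or 3 or female replicate 1 or 3. Male replicate 3 is the array with the globin signal, and without it Sox2 passed (adjusted p = 0.045).

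Rnf2delta females of E12.5 were last set against control females a day older. Here 2 factors were higher in Rnf2delta and 1 was lower, where 3.64% of all genes were higher and 5.81% lower (4.78% and 5.01% with quantile normalization). Nanog was higher by 0.91 ± 0.20 (adjusted p = 0.0045) and Utf1 by 0.80 ± 0.17 (adjusted p = 0.003), each with no overlap. Lin28a was lower (-0.58 ± 0.15, adjusted p = 0.016). Pou5f1 (-0.23, interval -0.54 to 0.09), Sox2 (0.15, interval -0.20 to 0.50) and Zfp42 (0.05, interval -0.42 to 0.52) did not pass. With only the compared groups 0 of the 10 passed, and Lin28a was also lost without Rnf2delta replicate 3 or control replicate 1.

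A wider set of 40 genes of the network held 15 transcription factors of the naive state and their partners, 4 of LIF and STAT3 signalling, 17 targets and associates of the core factors and 4 of the formative or primed state. Of these 39 were tested. The set was chosen with results of these data known. In control females from E11.5 to E13.5, 14 fell and 2 rose, beside 12% and 14.2% of all genes, with a median change of -0.24. Tdgf1, the NODAL co-receptor CRIPTO, fell most (-4.29 ± 0.40, adjusted p = 6.8e-09), before the RNA-binding protein L1td1 (-2.02 ± 0.20, adjusted p = 2.6e-08). The TGF-beta family ligand Gdf3 (-1.44 ± 0.25, adjusted p = 5.7e-05) and the F-box protein Fbxo15 (-1.42 ± 0.21, adjusted p = 9.8e-06) followed. In control males 5 fell and 5 rose, beside 5.64% and 5.32% of all genes, with a median of -0.09. Otx2, a homeodomain factor of the primed state, rose by 1.84 ± 0.23 (adjusted p = 3.1e-06) and Dppa3 by 1.05 ± 0.15 (adjusted p = 1.7e-05), and Tfap2c, an AP-2 factor, fell (-1.07 ± 0.22, adjusted p = 0.0018). Lefty1, an inhibitor of NODAL, rose by 1.05 ± 0.34 (adjusted p = 0.044, and up to 0.3 with 7 alternatives ending the call).

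The interaction of stage and sex called 8 of the 39, beside 5.28% of all genes, and its 4 largest were all more negative in females. They were Tdgf1 (-3.56 ± 0.56, adjusted p = 0.00025), Lefty1 (-2.37 ± 0.48, adjusted p = 0.003), Otx2 (-1.81 ± 0.32, adjusted p = 0.00094) and Tcl1 (-1.80 ± 0.29, adjusted p = 0.00031), and each passed in all 21 alternatives. A negative value here can come from a female fall, a male rise or both. Otx2 rose in control males (1.84) and did not pass in control females. Lefty1 fell in females (-1.33) and rose in males (1.05). At E13.5, 11 of the 39 were lower and 2 higher in control females than in males, beside 8.37% and 7.91% of all genes. Lefty1 (-3.73), Tdgf1 (-3.69), Otx2 (-2.42) and Lefty2 (-2.41), a second NODAL inhibitor, differed most.

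By genotype in E12.5 females 6 of the 39 were lower in Rnf2delta and none higher, beside 2.16% and 7.73% of all genes. They included Tdgf1 (-1.25 ± 0.40, adjusted p = 0.042), Prdm14, a factor needed for germ cell specification (-0.84 ± 0.25, adjusted p = 0.033), L1td1 (-0.76 ± 0.20, adjusted p = 0.015) and Trim71, a let-7 target (-0.66 ± 0.16, adjusted p = 0.0079, overlapping arrays). Array weights, only the compared groups and the loss of Rnf2delta replicate 1 each ended all 4 calls. In E12.5 males, where 0.843% of all genes were higher and 0.119% lower, Otx2 alone of the 39 passed, higher by 1.1 ± 0.23 (adjusted p = 0.0096) and lost without replicate 2 of either genotype (adjusted p up to 0.12). None of the 39 passed at E11.5 in either sex. Tdgf1 was lower in Rnf2delta females at that stage too, with a mean of 5.39 against 6.62 in controls.

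From E11.5 to E12.5, 12 of the 39 fell and 2 rose in Rnf2delta females, beside 11.7% and 6.96% of all genes. In control females 9 fell and 3 rose, beside 14.2% and 4.56%. Tdgf1 fell in both (-3.03 ± 0.40 in Rnf2delta and -3.01 ± 0.40 in controls), as did L1td1 (-1.85 ± 0.20 and -0.86 ± 0.20). The Tdgf1 means of Rnf2delta females at E12.5 (2.36) and control females at E13.5 (2.33) lay below the array medians. Low signals compress differences, so changes of Tdgf1 that use these groups may be understated. Against control females of E13.5, 4 of the 39 were higher in Rnf2delta females of E12.5 and none lower, beside 3.64% and 5.81% of all genes, among them Fbxo15 (0.76 ± 0.21, adjusted p = 0.023) and Rif1 (0.52 ± 0.13, adjusted p = 0.0085). With the fit held to the compared groups all 4 calls ended.

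Over the 10 group means all 45 pairs of members correlated above 0, with a median Pearson r of 0.61 and 8 pairs above 0.8. The points share arrays and a common fall with stage, so this is a description. Besides Esrrb and Tfcp2l1, the closest pairs were Klf2 and Tfcp2l1 (0.88), Pou5f1 and Zfp42 (0.87) and Nanog and Esrrb (0.86). Zfp42 and Sall4 (0.06) were furthest from each other.

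Outside the set, the tested genes with the most similar pattern over the 10 group means were named for the triad of Pou5f1, Nanog and Sox2. For Pou5f1 they were Rnf125 (r = 0.969), Prdm14 (0.953), Ap2a2 (0.945), Ap3b2 (0.945) and C1qbp (0.938). Nanog was followed by Cep89 (0.97), B3gnt2 (0.961), Palld (0.959), Fbxo5 (0.956) and Zfp930 (0.955), all lowest in control females at E13.5. Of these Palld had group means of 2.09 to 2.62, near or below the array medians. For Sox2 they were 4931406H21Rik (0.926), Ppp1r14b (0.921), Pfkfb4 (0.918), Lrrn4 (0.918) and Vps37b (0.908). Group means of 4931406H21Rik (at most 2.28) and Pfkfb4 (at most 2.43) lay below every array median. Those of Vps37b were 2.28 to 2.91, near the medians.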

How the data were processed

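The authors deposited log2 signals for 34760 probe sets on 30 arrays, and R 2.15 and affy 1.36 stand in the submitters' processing notes. How background was corrected and probes were summarised, and on which genome build, is not given in the sources used here. No scanner file or date was used. The members and gene lists were chosen with earlier results of these data known. Probe sets were named from the platform annotation through Entrez identifiers (RefSeq, GRCm38.p6), and 21640 had 1 symbol. The probe set with the highest mean stood for a gene, and genes with fewer than 3 arrays above the 40th percentile of their array were removed (4757 genes).

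Each comparison was a contrast in 1 fit of all arrays with 1 mean per group (limma 3.58.1, R 4.3.3, 20 residual degrees of freedom), with two-sided tests, Benjamini-Hochberg adjustment over 15180 genes and a threshold of 0.05. The comparisons share groups and are not independent. Contrasts and their recovery were tested on simulated data. Same-numbered arrays deviated together, with every r above 0.1, in 1 of 17 comparisons, the genotype in E11.5 males (r of 0.104 to 0.16, against -0.157 to 0.293 over all pairs). With the replicate block 0 members passed there, as without it, and the reported design has no block. Members past the threshold are named in every comparison, and the others by values or counts, with up to 4 genes of the wider set past the threshold with the largest change per comparison (fewer where a comparison adds little) and the 5 genes most like Pou5f1, Nanog and Sox2. Alternatives were array weights, quantile normalization, the mean of probe sets, filters, the replicate number as a block, another prior, other array sets and leaving out single arrays. Array number limits the precision, and low signals compress differences.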

Additional observations from a re-analysis of the deposited data

Results flagged for a closer look

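The fall of Nanog from E11.5 to E13.5 in controls differed between the sexes, by -1.385 on the log2 scale (limma interaction, adjusted p = 0.004), with changes of -2.09 in females and -0.70 in males. No other member passed an interaction contrast in the results given above. All 3 female arrays of E13.5 (6.25 to 6.82) lay below all 3 male arrays (7.39 to 7.6), and at E11.5 all 3 female arrays (8.5 to 8.79) lay above the male ones (8.18 to 8.24). The E11.5 difference between the sexes did not pass (limma, adjusted p = 0.59). The interaction call held in each of 21 alternatives.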

How the results depend on the processing

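Of 3090 member changes recomputed under an alternative, 2859 kept their direction and side of the threshold, 86 lost the call, 58 gained one and none reversed a call; 87 values past the threshold in neither fit changed sign. Array weights changed the number of members called in Rnf2delta against control to 1 in E11.5 females and 0 in E12.5 females. In controls it gave 2 and 3 for the first and second day in females, 4 for the first day and 6 for both days in males, 0 and 6 for the sexes at E12.5 and E13.5 and 3 for the interaction of stage and sex. In Rnf2delta it gave 2 for males over the day and 1 between the sexes. Quantile normalization gave 2 for the first day in control females, 4 between control sexes at E12.5 (Sox2, Utf1, Sall4 and Lin28a, higher in females, with Esrrb lost), 1 between Rnf2delta sexes, 1 for genotype by stage and 2 for stage by sex. It added Nanog to the 3 for genotype in E12.5 females, Esrrb to the 5 of the second female day and Sall4 to the 3 of control males over both days. Stage by sex also gave 2 with the mean of probe sets, the stricter filter, or the trended prior, and 3 without the E12.5 female arrays or with only the compared groups. The trended prior gave 2 between control sexes at E12.5 and 5 at E13.5, where 5 also passed with the stricter filter or without the E12.5 female arrays, and 6 with only the compared groups. No filter gave 0 for the first day in control males, and leaving out the E12.5 female arrays gave 4 there and 2 in Rnf2delta males. With only the compared groups the counts were 0 for genotype in E12.5 females, 1 and 3 for the female days, 4 for the first male day, 0 between control sexes at E12.5, 1 between Rnf2delta sexes and 0 for Rnf2delta E12.5 against control E13.5 females. The cause of these shifts was not tested. The replicate block gave the main count in all 20 comparisons, for example 9 in control females and 3 for genotype in E12.5 females.

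Leaving out single arrays gave 1 to 4 for genotype in E12.5 females, 2 to 4 and 3 to 5 for the female days, 0 to 1 for the first male day, 0 to 1 for Rnf2delta males, 0 to 2 and 1 to 2 between control and Rnf2delta sexes at E12.5, and 1 to 2 for stage by sex. It gave 6 to 9 for control females over both days, 5 to 7 for Rnf2delta females and 2 to 3 for control males over both days. Over all genes, array weights moved the count for genotype in E12.5 females from 1502 to 254, for control males over both days from 1664 to 2891 and for Rnf2delta males from 83 to 443. Other named genes gave 714 values on the same side and 61 that lost the call.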
